A study of Mus musculus with 45 samples.

Results

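B cell identity genes are the genes by which B lymphocytes are recognised in RNA measurements. The 8 genes described here, Ms4a1, Cd79a, Cd79b, Pax5, Fcer2a, Cd22, Blk and Ebf1, were taken by name from a list, and all 8 were found among the 55367 gene symbols of the count table. They were measured in 45 libraries of mouse tissue, 3 for each of 15 groups. Female Balb/c mice carried a porous polycaprolactone scaffold implanted under the skin at 7 to 8 weeks of age, a synthetic site that collects circulating cells. The implants were placed 2 weeks before cells of the 67NR, 4T07 or 4T1 line were injected into the mammary fat pad, and tissues were taken on day 14 after the injection. The 3 sister lines of triple negative breast cancer come from 1 spontaneous tumor and differ in how far they spread, from 67NR, which does not leave the primary site, through 4T07 to 4T1, which forms metastases. Control mice received no tumor cells but carried the scaffold too. Spleens, lungs and scaffolds came from control, 67NR, 4T07 and 4T1 mice, and primary tumors came from the 67NR, 4T07 and 4T1 mice. The labels do not link the tissues of 1 mouse.

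B cells develop in the bone marrow under transcription factors that include Ebf1 and Pax5, and mature B cells settle in the follicles of the spleen and lymph nodes. Their antigen receptor is a membrane antibody held by the signalling pair that Cd79a and Cd79b encode, and kinases of the Src family such as Blk act just below it, while the inhibitory lectin Cd22 restrains it. Ms4a1 encodes CD20, and Fcer2a encodes CD23, a low affinity receptor for IgE found on follicular B cells. Ebf1 is also known outside the lineage, in fat and stromal cells.

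Levels are given as CPM, counts per 1000000 counts of the library. Library totals ran from 3491888 to 8175380 counts. The floor was 3 counts, which correspond to 0.367 to 0.859 CPM, and a gene at or under it in a library was not read as detected. A gene was called where its adjusted p was under 0.1 (under 0.05 where tumors were compared) and its fold change was above 2. Adjusted p-values came from edgeR (quasi-likelihood F-test) and were adjusted by Benjamini-Hochberg over all genes of a comparison, and errors of log2 fold changes are standard errors. In whole tissue, fewer B cells and less RNA per B cell cannot be told apart.

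Some libraries stood apart from their labels in genes that mark a tissue. Tlx1, a transcription factor of the spleen stroma, was at 14.6, 13.8 and 11.1 CPM in the 3 lungs of 4T07 mice, at 0.324 to 1.72 CPM in the other 9 lungs and at 11.0 to 55.8 CPM in the 12 spleens. Sftpc, a surfactant gene of the lung, was at 2855, 1798 and 3620 CPM in the same 3 lungs against 7939 to 13286 CPM in the others. The 3 lungs of 4T07 mice were therefore high in a spleen gene and low in a lung gene, and they are named as labelled below. Of the 3 scaffolds of 4T07 mice, the library numbered 22 held Tlx1 at 4.65 CPM (38 counts), against 0.180 to 1.11 CPM in the other 11 scaffolds, and the tumor library 31 of a 4T07 mouse held it at 4.42 CPM (22 counts). Sftpc was also counted in scaffolds, at 7.61 to 127 CPM, and in tumors, at 1.08 to 111 CPM.

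Promoter sequence from RefSeq (GRCm38.p6; 250 bases before to 50 after each start) was matched for 5 of the 8 genes, Cd79a, Pax5, Fcer2a, Cd22 and Ebf1. The windows of Cd22 and Cd79a are shown because these genes contrasted in the spleen. Cd22 was called lower there with both invasive lines, and Cd79a, at a much lower level, with neither. Capitals mark a strict spelling of the motif of Ebf1, CCCNNGGG, and the E-box CAGGTG, each searched on both strands without overlap with one another. Ebf1 sites with other spellings were not searched.
Cd22, chr7:30878979-30879278, minus strand: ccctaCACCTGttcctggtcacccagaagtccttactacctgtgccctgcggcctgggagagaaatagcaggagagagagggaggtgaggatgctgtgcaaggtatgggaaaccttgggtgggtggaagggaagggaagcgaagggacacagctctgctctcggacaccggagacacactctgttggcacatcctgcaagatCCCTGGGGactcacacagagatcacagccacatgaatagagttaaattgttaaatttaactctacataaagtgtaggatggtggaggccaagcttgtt
Cd79a, chr7:24897247-24897546, plus strand: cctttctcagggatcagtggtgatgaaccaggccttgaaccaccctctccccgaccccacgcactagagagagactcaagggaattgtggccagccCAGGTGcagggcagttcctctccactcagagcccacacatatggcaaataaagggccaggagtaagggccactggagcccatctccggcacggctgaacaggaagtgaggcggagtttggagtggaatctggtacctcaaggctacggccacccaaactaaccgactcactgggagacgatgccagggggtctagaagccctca
Cd22 held 1 match of each motif, and Cd79a held 1 match of CAGGTG and none of CCCNNGGG; of the other 6 windows, 1 of Fcer2a held CAGGTG and none held CCCNNGGG. Of 32851 windows of all genes, 13.7% held CCCNNGGG and 20.2% held CAGGTG, so that both motifs are common. A match, or the lack of one, describes the letters only. The octamer ATGCAAAT, present in 1.74% of all windows, was in none of the 8 windows of the 5 genes.

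The 8 genes were most abundant in the spleen. Spleens of 4T1 mice had lower levels than control spleens for 6 of the 8 genes, and spleens of 4T07 mice for 4, while spleens of 67NR mice had none called. Ms4a1 was at 413, 352 and 437 CPM in control spleens, at 384, 399 and 370 CPM with 67NR, at 137, 127 and 174 CPM with 4T07 and at 80.8, 111 and 65.8 CPM with 4T1. The control and 67NR spleens overlapped, and each 4T07 and 4T1 spleen lay below all of them. The log2 fold change against control was -1.97 ± 0.19 with 4T1 (adjusted p = 2.3e-06) and -1.28 ± 0.19 with 4T07 (adjusted p = 0.000121).

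**Figure D1:**
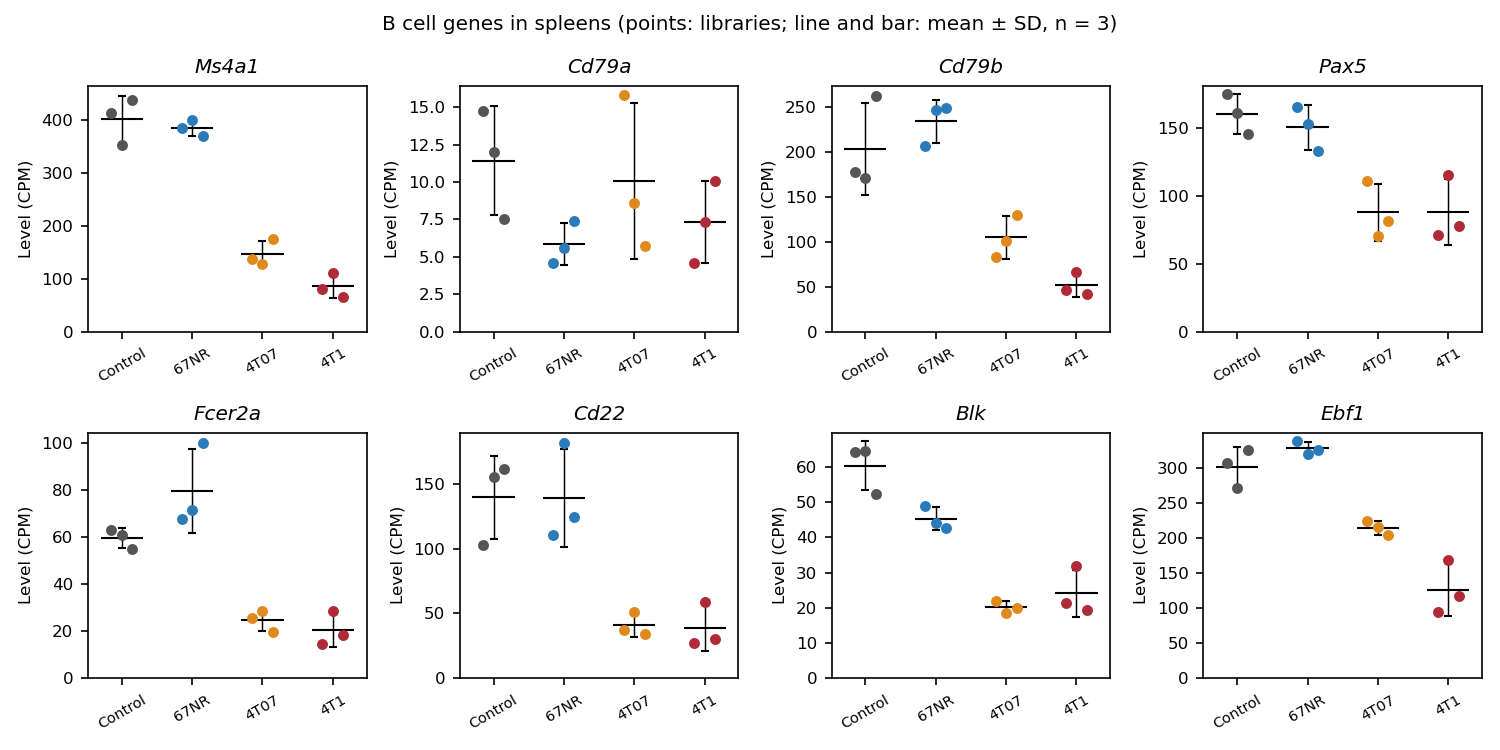
Levels in CPM of the 8 B cell genes in spleens, by group; points are libraries, lines and bars are mean ± SD of 3 libraries. Every 4T07 and 4T1 point of Ms4a1, Fcer2a, Cd22 and Blk lies below the control and 67NR points, while Cd79a overlaps between control, 4T07 and 4T1 spleens.

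Among the receptor genes, Cd79b and Cd79a did not move alike. Cd79a was counted far less, with 163 counts over the 3 control spleens against 2874 for Cd79b. How fully its RNA was captured was not tested. Cd79b was at 177, 171 and 263 CPM in control spleens, 207, 247 and 250 CPM with 67NR, 83.4, 101 and 130 CPM with 4T07 and 46.3, 66.6 and 41.4 CPM with 4T1. All 3 spleens of 4T1 mice were below all 3 of 4T07 mice, and these were below control and 67NR spleens. Cd79b fell with 4T1 by 1.73 ± 0.22 on the log2 scale (adjusted p = 2.79e-05), and with 4T07 its change of -0.78 ± 0.22 (adjusted p = 0.0143) was short of the fold threshold. Cd79a, its signalling partner, was at 14.8, 12.0 and 7.55 CPM in control spleens, 4.61, 5.62 and 7.40 CPM with 67NR, 15.9, 8.63 and 5.73 CPM with 4T07 and 4.55, 7.35 and 10.1 CPM with 4T1. Control, 4T07 and 4T1 spleens overlapped for Cd79a, whose 67NR spleens were all below control. Its log2 fold change was -0.39 ± 0.36 with 4T1 (adjusted p = 0.458), -0.02 ± 0.35 with 4T07 (adjusted p = 0.978) and -1.06 ± 0.37 with 67NR (adjusted p = 0.126).

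The inhibitory receptor Cd22 and the kinase Blk were lower with both invasive lines. Cd22 was at 103, 155 and 161 CPM in control spleens, 111, 182 and 125 CPM with 67NR, 36.9, 51.3 and 34.1 CPM with 4T07 and 27.1, 59.0 and 29.9 CPM with 4T1. The invasive groups overlapped each other and lay below the other 6 spleens. Cd22 fell by 1.60 ± 0.28 with 4T1 (adjusted p = 0.00043) and by 1.59 ± 0.28 with 4T07 (adjusted p = 0.000501). Blk was at 64.3, 64.6 and 52.4 CPM in control spleens, 49.0, 44.2 and 42.8 CPM with 67NR, 22.0, 18.6 and 20.0 CPM with 4T07 and 21.3, 31.8 and 19.4 CPM with 4T1. All 67NR spleens were just below all control spleens for Blk, a difference of -0.51 ± 0.18 that was not called (adjusted p = 0.141), and the invasive groups overlapped far below. Blk fell by 1.07 ± 0.19 with 4T1 (adjusted p = 0.000484) and by 1.41 ± 0.19 with 4T07 (adjusted p = 5.85e-05).

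Fcer2a, the marker of follicular B cells, was at 62.9, 60.9 and 54.8 CPM in control spleens, 67.4, 71.3 and 100 CPM with 67NR, 25.7, 28.3 and 19.8 CPM with 4T07 and 14.6, 28.6 and 18.5 CPM with 4T1. The 4T07 and 4T1 spleens overlapped and were all below the control spleens, which were all below the 67NR spleens. Fcer2a fell by 1.28 ± 0.23 with 4T1 (adjusted p = 0.000568) and by 1.10 ± 0.23 with 4T07 (adjusted p = 0.00201), and its 67NR difference of 0.32 ± 0.22 was not called (adjusted p = 0.497).

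Of the 2 transcription factors of the lineage, Pax5 was called with neither line and Ebf1 with 4T1 alone. Pax5, which holds B cell identity, was at 175, 161 and 145 CPM in control spleens, 165, 153 and 133 CPM with 67NR, 111, 70.4 and 81.6 CPM with 4T07 and 70.7, 115 and 77.7 CPM with 4T1. Its 4T07 and 4T1 spleens were below all control spleens, but the differences of -0.71 ± 0.20 (adjusted p = 0.0136) and -0.62 ± 0.20 (adjusted p = 0.0266) stayed short of the fold threshold. Ebf1 was at 307, 271 and 326 CPM in control spleens, 338, 319 and 325 CPM with 67NR, 223, 216 and 204 CPM with 4T07 and 94.2, 168 and 116 CPM with 4T1. The groups were ordered without overlap, 4T1 below 4T07 below control. Ebf1 fell with 4T1 by 1.01 ± 0.18 (adjusted p = 0.000631), and with 4T07 its difference was -0.32 ± 0.18 (adjusted p = 0.215).

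Counted over the 8 genes, 6 were called lower in 4T1 against control spleens, where 10.0% of all 21128 genes tested were, and 4 in 4T07 against control spleens, where 10.3% were. With 67NR none of the 8 was called in either direction, against 2.26% of all genes. The members' median log2 fold change was -1.18 with 4T1, -0.94 with 4T07 and -0.13 with 67NR, beside medians over all genes of -0.10, -0.09 and 0.00. Blk and Ebf1 lay close to the fold threshold in 4T1 spleens: Blk was at -0.99 and -0.97 without library 40 or 42, and Ebf1 at -0.83, -0.99 and -0.98 without library 40, 42 or the control library 7, so that these calls were lost. The adjusted p stayed at or under 0.00558 in these 5 cases. In 4T07 spleens, Fcer2a was at -0.99 without library 30.

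Between the tumor lines, 4T1 against 67NR spleens called 5 of the 8 lower (Ms4a1, Cd79b, Fcer2a, Cd22 and Ebf1) where 10.4% of all genes were, with log2 fold changes from -1.84 for Cd79b to -1.03 for Ebf1, which was not called without library 40, 42 or the 67NR library 16. The 4T07 against 67NR spleens called Ms4a1, Fcer2a and Cd22 lower, where 8.20% of all genes were, and Cd79a higher by 1.05 ± 0.37 (adjusted p = 0.0558), where 6.50% were. That Cd79a call was lost without the 4T07 library 28, at 0.63, without the 67NR library 16 or 17, without TMM scaling, at 0.79, and with at least 10 counts required in every library, at 1.00, just short of the fold threshold. Between 4T1 and 4T07 spleens none of the 8 was called, against 2.33% of all genes; Cd79b came nearest at -0.96 ± 0.22 (adjusted p = 0.0333), and passed the fold threshold without library 28 or 41, at -1.13 and -1.16.

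**Figure D2:**
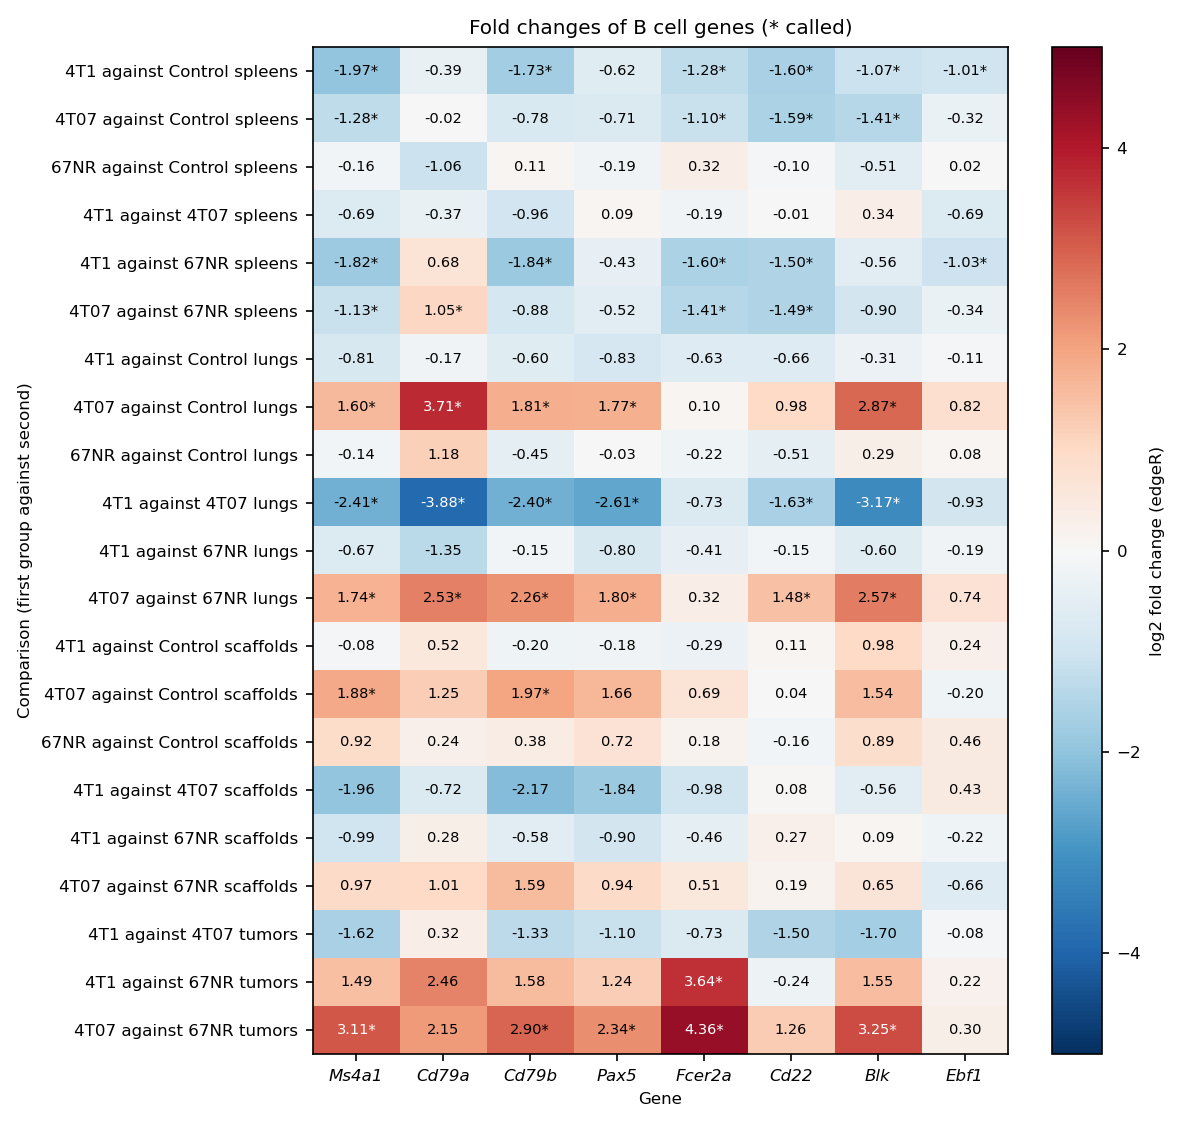
Log2 fold changes of the 8 genes (columns) in the 21 comparisons between groups of a tissue (rows), first group against second; an asterisk marks a call. The spleen rows with an invasive line against control or 67NR are negative except for Cd79a against 67NR, and the rows with 4T07 lungs are the only lung rows with calls.

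Markers of other cells moved in the same spleens. Of 10 neutrophil genes, all 10 rose with 4T1 and with 4T07; their summed level was 991 to 1745 CPM in control, 26302 to 32021 CPM in 4T07 and 13085 to 34224 CPM in 4T1 spleens, and none of the 10 was at 0 in any spleen. Mpo and Elane, granule enzymes of neutrophil precursors, rose by 6.32 and 6.28 with 4T1. Of 8 erythroid genes, 7 rose with 4T1 and 5 with 4T07, led with 4T1 by Ermap at 2.13 and Slc4a1 at 1.96. Of 10 T cell genes, 5 were called lower with 4T1 and 9 with 4T07, among them the T cell receptor genes Cd3g (-1.83) and Trac (-1.48) with 4T1. The summed level of the 8 B cell genes divided by that of the T cell genes was 2.94 ± 0.50 (SD, n = 3) in control spleens, 3.70 ± 0.40 in 4T07 and 2.43 ± 0.35 in 4T1 spleens, and the range of control spleens overlapped those of both. Relative to Ptprc, the pan-leukocyte gene CD45, the summed level of the 8 genes without Ebf1 was 119% to 150% in control, 193% to 202% in 67NR, 148% to 164% in 4T07 and 73.8% to 111% in 4T1 spleens. On the scale of Ptprc alone, 4T07 spleens were not below control and 4T1 spleens were. Ptprc itself fell by 1.32 ± 0.15 with 4T07 and was at -0.91 ± 0.15 with 4T1, short of the fold threshold. Of 3 pan-leukocyte genes, Ptprc, Coro1a and Laptm5, 1 was called lower with 4T07, at a median of 0.06, and none with 4T1, at -0.14. The ratio therefore depends on a gene that fell, and ratios to Coro1a or Laptm5 were not computed. The part of these other cells in the lower B cell levels was not tested.

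Other genes of the pathway are read against the shares of all genes called lower in control comparisons of the spleen given above, and against 9.84% called higher with 4T1 and 8.26% with 4T07. Of 18 genes of receptor signalling, 9 were called lower and none higher with 4T1 (median -1.02), led by the complement receptor Cr2 (-1.60) and the adaptor Bank1 (-1.55); with 4T07, 8 were lower and 1 higher (median -0.73). Of 10 transcription regulators of the lineage, 5 were lower with 4T1 (median -0.95), among them Mef2c (-1.78) and Ikzf3 (-1.50), and 2 with 4T07, nearer the share of all genes. Of 10 genes of homing and the BAFF survival pathway, 5 were lower with 4T1 (median -0.93), with the chemokine receptor Ccr6 at -1.65 and the antigen presentation gene H2-Ob at -1.64, and with 4T07 5 were lower and 1 higher. Of 7 plasma cell genes tested, 2 were lower with 4T1, the BCMA gene Tnfrsf17 and the antibody joining chain Jchain, each at -1.67, and 3 with 4T07. Of 7 germinal center genes, 1 was lower with 4T1, Rgs13, whose 10 counts in control and 0 in 4T1 spleens make it at least 2.98-fold lower against a floor of 3 counts over the group; 2 were higher and none lower with 4T07, so that this list did not follow the 8 genes. Of 6 genes of plasmacytoid dendritic cells, which share part of the B cell program, 2 were lower with 4T1, Siglech (-1.23) and Ccr9 (-1.14), and 4 with 4T07.

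Several genes of early B cell precursors were called higher. Vpreb1, part of the surrogate light chain that precursors use before they have a light chain of their own, was at 1.17, 1.85 and 0.431 CPM in control spleens, 0.419, 0.511 and 2.47 CPM with 67NR, 17.3, 61.8 and 41.2 CPM with 4T07 and 6.23, 5.88 and 8.23 CPM with 4T1. Both invasive groups lay above control and 67NR, and 4T07 lay above 4T1. Rag1, which cuts the antibody genes for rearrangement, was at 0.194, 0.692 and 0.216 CPM in control spleens, 16.7, 10.7 and 13.2 CPM with 4T07 and 1.44, 2.20 and 3.88 CPM with 4T1, and rested in control on 5 counts; the ratio of summed levels to control was 37.7 with 4T07 (95% counting interval 15.9 to 118) and 7.16 with 4T1 (2.77 to 23.5). Vpreb2 had no count in control spleens and was at least 33.6-fold higher with 4T07 (101 counts in all) and at least 4.10-fold higher with 4T1 (11 counts in all), each against a floor of 3 counts over the group. These intervals cover counting error only.

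Of the 9 precursor genes, 7 rose with 4T07 (Vpreb1, Vpreb2, Vpreb3, Igll1, Rag1, Rag2 and Dntt), with a median over the list of 5.30 on the log2 scale, or 3.17 with genes that had no count in control set at their bound. With 4T1, 5 rose (Vpreb1, Vpreb2, Igll1, Rag1 and Dntt), with a median of 2.81, or 1.47 with bounds. Il7r, the interleukin-7 receptor that T cells carry too, fell by 2.08 with 4T1 and by 1.09 with 4T07, and none of the 9 was called in 67NR against control spleens. Cd93, the other gene of the list, which myeloid and endothelial cells carry too, was at 71.5, 63.2 and 72.2 CPM in control, 82.6, 88.5 and 99.4 CPM in 4T07 and 45.5, 51.2 and 38.8 CPM in 4T1 spleens, and was not called with either line. The summed level of the list, most of it Il7r and Cd93 in control spleens, was 204 to 363 CPM in control, 257 to 377 CPM in 4T07 and 102 to 139 CPM in 4T1 spleens, so that as a sum it was lowest with 4T1. In 4T1 against 4T07 spleens, Vpreb1 was lower by 2.50 ± 0.44 (adjusted p = 0.0062) and Rag1 by 2.31 ± 0.39 (adjusted p = 0.00486). The counts were 7 in 4T07 whichever library was left out and 3 to 5 in 4T1.

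**Figure D3:**
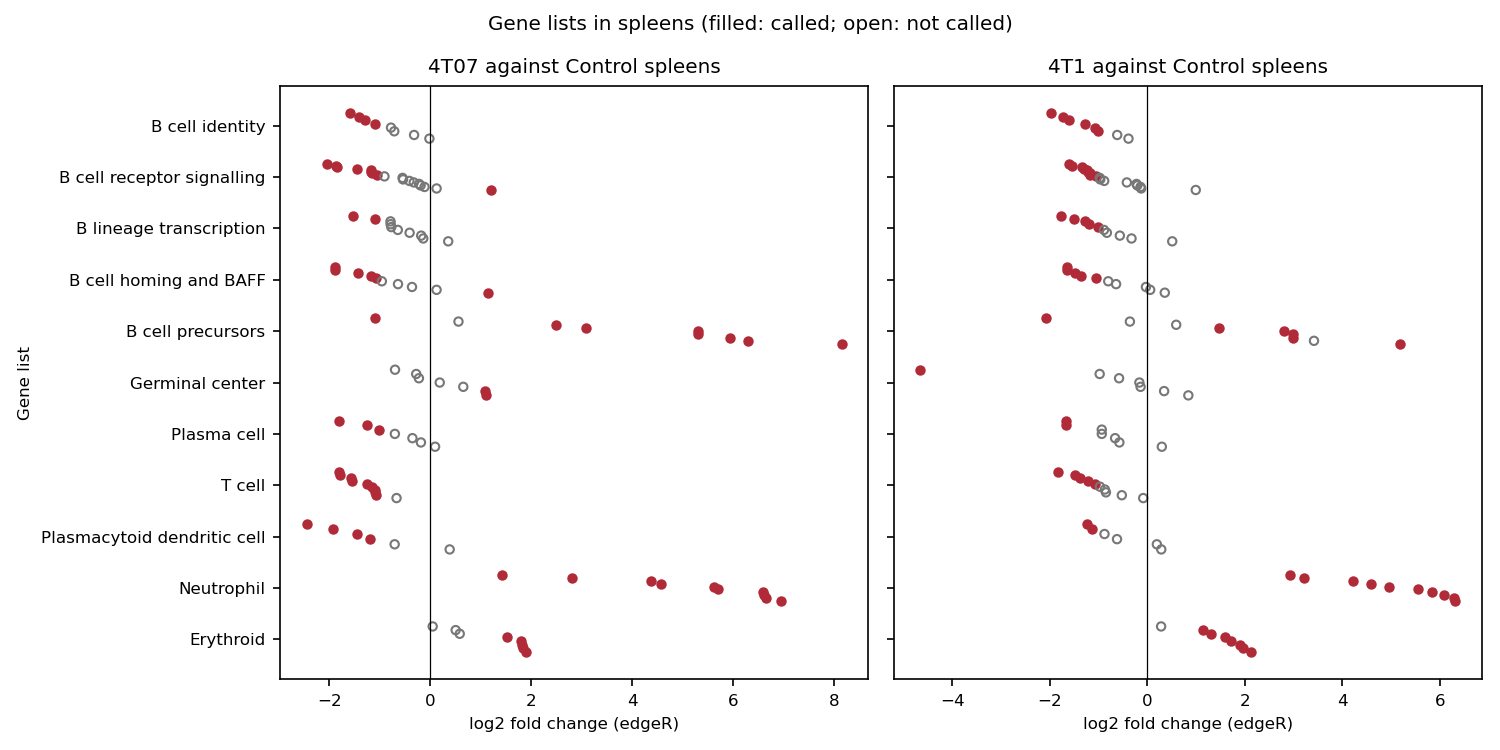
Log2 fold changes in spleens of 4T07 (left) and 4T1 (right) mice against control, for the genes of 11 lists; filled points were called, open points were not. B cell identity, receptor, lineage, homing and T cell genes lie mostly to the left of 0, B cell precursor, neutrophil and erythroid genes mostly to the right.

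In control lungs all 8 genes were lower than in control spleens, where 19.7% of all 21602 genes tested were. The differences ran from -1.43 ± 0.15 for Ebf1 to -5.01 ± 0.51 for Cd79a, which held 3, 2 and 1 counts in the 3 control lungs and so lay at or under the floor. In lungs of 4T1 against control mice none of the 8 genes was called, against 4.61% of all 21937 genes. Ms4a1 was at 56.1, 49.2 and 43.7 CPM in control lungs, 53.4, 41.3 and 51.6 CPM with 67NR and 27.4, 26.0 and 31.0 CPM with 4T1. Every lung of a 4T1 mouse was below every control and 67NR lung for Ms4a1, with a log2 fold change of -0.81 ± 0.16 against control (adjusted p = 0.0022). Pax5 was at 21.6, 18.4 and 17.5 CPM in control lungs, 16.3, 20.3 and 23.9 CPM with 67NR and 9.82, 10.2 and 12.0 CPM with 4T1, again without overlap, at -0.83 ± 0.21 (adjusted p = 0.0178). All 8 genes had negative estimates with 4T1, with a median of -0.61 beside 0.00 over all genes; Cd79b, Fcer2a and Cd22 were between -0.60 and -0.66 with adjusted p from 0.0627 to 0.0758. With 67NR none was called, against 4.25% of all genes, and 4T1 against 67NR lungs called none, against 5.03%. Without the 4T07 lungs in the fit, the count stayed at 0 in all 3 of these comparisons.

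The lungs of 4T07 mice held more of most B cell genes than any other lungs. Ms4a1 was at 129, 164 and 142 CPM there, about the level of 4T07 spleens (127 to 174 CPM). Cd79b was at 112, 115 and 97.0 CPM there, 35.4, 37.0 and 24.4 CPM in control and 24.9, 21.4 and 29.9 CPM in 67NR lungs. Pax5 was at 57.4, 81.6 and 49.5 CPM with 4T07. For these genes no other lung reached the lowest 4T07 lung. Blk was at 22.9, 24.6 and 14.3 CPM against 1.13 to 4.34 CPM in the other 9 lungs, and at 18.6 to 22.0 CPM in 4T07 spleens. Against control lungs, 5 of the 8 genes were called higher, where 15.3% of all genes were: Ms4a1 (1.60 ± 0.15), Cd79a (3.71 ± 0.58), Cd79b (1.81 ± 0.18), Pax5 (1.77 ± 0.19) and Blk (2.87 ± 0.29), with adjusted p from 3.52e-08 to 2.38e-05. Cd22 was at 0.98 ± 0.20 (adjusted p = 0.00047) and passed the fold threshold under 4 of the other settings and without library 27 or the control library 4, Ebf1 was at 0.82 ± 0.14 (adjusted p = 6.95e-05), and Fcer2a at 0.10 ± 0.21 (adjusted p = 0.738). Fcer2a was at 16.7, 19.6 and 17.8 CPM with 4T07 and 22.0, 17.0 and 13.8 CPM in control lungs, where the groups overlapped, and Cd22 at 37.5, 39.6 and 23.0 CPM against 19.4, 16.0 and 17.6 CPM, where they did not. Cd79a rested on 6 counts in control and 65 in 4T07 lungs, a ratio of summed levels of 13.3 (95% counting interval 5.81 to 37.7). Against 67NR lungs, 6 were called higher, where 14.4% of all genes were, and 4T1 against 4T07 lungs called 6 lower, where 11.9% were; Fcer2a and Ebf1 were the genes not called in either, though Ebf1 in 4T1 against 4T07 lungs was called without library 25 or 39.

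These 4T07 lungs are the libraries with high Tlx1 and low Sftpc named above, and other lists moved with them. Of 2 spleen stroma genes tested, Tlx1 was called higher and Nr2f2 was not, and Nkx2-5, defining for that stroma too, had 8 counts over the 3 libraries against 0 in control lungs. Of 4 lung epithelium genes, 3 were lower, with a summed level of 5064 to 13053 CPM against 26282 to 29840 CPM in control. All 10 neutrophil genes were higher, with a summed level of 24338 to 29426 CPM against 233 to 295 CPM in control, and so were all 8 erythroid genes, 7 of 9 B cell precursor genes and 3 of 10 T cell genes, at 125 to 159 CPM summed against 82.2 to 88.0 CPM. The part of the spleen genes, or of these other cells, in the higher B cell levels was not tested, and the 4T07 lungs have no library without Tlx1 to set beside them.

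**Figure D4:**
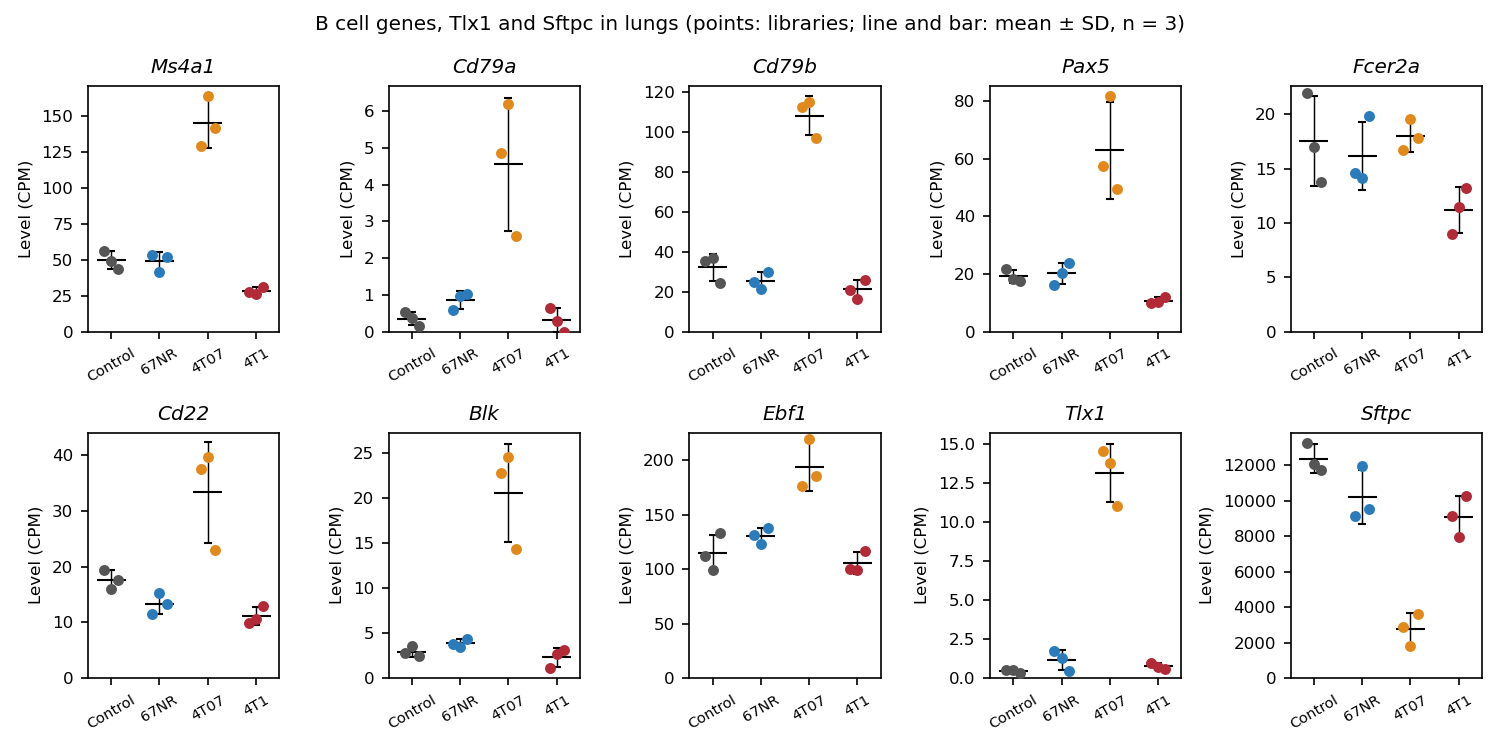
Levels in CPM of the 8 B cell genes, of the spleen gene Tlx1 and of the lung gene Sftpc in lungs, by group; points are libraries, lines and bars are mean ± SD of 3 libraries. The 3 lungs of 4T07 mice are highest in Ms4a1, Cd79a, Cd79b, Pax5, Cd22, Blk, Ebf1 and Tlx1 and lowest in Sftpc, and overlap the control lungs in Fcer2a.

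Most of the 8 genes were rare in scaffolds. Control scaffolds were called lower than control spleens for 7 of the 8 genes, where 17.5% of all genes were, and lower than control lungs for 5 (Ms4a1, Cd79b, Pax5, Fcer2a and Blk), where 17.9% were. Ms4a1 was at 4.61, 4.12 and 4.88 CPM in control scaffolds, 13.9, 8.66 and 4.59 CPM with 67NR, 43.5, 6.68 and 4.97 CPM with 4T07 and 9.47, 2.61 and 1.62 CPM with 4T1. All groups overlapped for Ms4a1 except 4T07 against control, and the highest value was in library 22. Cd79a, Fcer2a and Blk were at or under 3 counts in 10, 5 and 6 of the 12 scaffolds, and their largest value, in each case, was in library 22. Ebf1 and Cd22 were the exceptions, each at 24.9 CPM or more in every scaffold. Ebf1 was at 133, 147 and 147 CPM in control scaffolds, 214, 199 and 205 CPM with 67NR, 136, 143 and 131 CPM with 4T07 and 157, 243 and 148 CPM with 4T1, and its control scaffolds differed from control spleens by -0.91 ± 0.15 (adjusted p = 0.000189), short of the fold threshold, or by -1.08 and called without TMM scaling. Cd22 was at 24.9 to 40.2 CPM in all 12 scaffolds, above the control lungs at 16.0 to 19.4 CPM, with a difference of 0.98 ± 0.19 from them (adjusted p = 0.00059) that was short of the fold threshold, and was called without the control lung library 4, at 1.07, or the control scaffold library 3, at 1.06.

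Genes of stromal and fat cells were counted in the same scaffolds. Pdgfra, a receptor of fibroblasts, was at 69.4 to 88.7 CPM in control scaffolds, 133 to 155 CPM in control lungs and 9.49 to 11.5 CPM in control spleens, and Adipoq, a hormone of fat cells, was at 50.8 to 65.5 CPM in control scaffolds. Ebf2 and Ebf3, relatives of Ebf1 that are not B cell genes, were at 6.49 to 9.44 and 3.78 to 7.60 CPM there and were called higher than in control spleens, where Ebf2 had no count and Ebf3 had 4. The summed level of 10 fibroblast, pericyte and adipocyte genes was 4133 to 5456 CPM in control scaffolds, 669 to 846 CPM in control lungs and 242 to 281 CPM in control spleens. The part of these cells in the level of Ebf1 was not tested.

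Between scaffold groups, 4T07 against control called Ms4a1 (1.88 ± 0.70, adjusted p = 0.0932) and Cd79b (1.97 ± 0.66, adjusted p = 0.0617) higher, where 3.85% of all 22156 genes were. Cd79b was at 32.3, 6.29 and 3.42 CPM with 4T07 and 3.15, 2.53 and 4.09 CPM in control scaffolds, so that library 22 set the mean and the third 4T07 value fell among the controls. Without library 22 the estimates were 0.23 for Ms4a1 (adjusted p = 0.855) and 0.44 for Cd79b (adjusted p = 0.67), and neither was called. The calls were also lost without the control library 1, 2 or 3, at adjusted p from 0.112 to 0.215. None of the 8 was called with 67NR against control, where 0% of all genes were (0 of 22156 by edgeR, with 626 at an unadjusted p under 0.05, and 1 by DESeq2). None was called with 4T1 against control or against 67NR, where 0.0226% of all genes were in each, with 4T1 against 4T07, where 1.00% were, or with 4T07 against 67NR, where 5.85% were. In that last comparison Ebf1 was lower by 0.66 ± 0.16 (adjusted p = 0.0184), without overlap between the groups and short of the fold threshold.

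**Figure D5:**
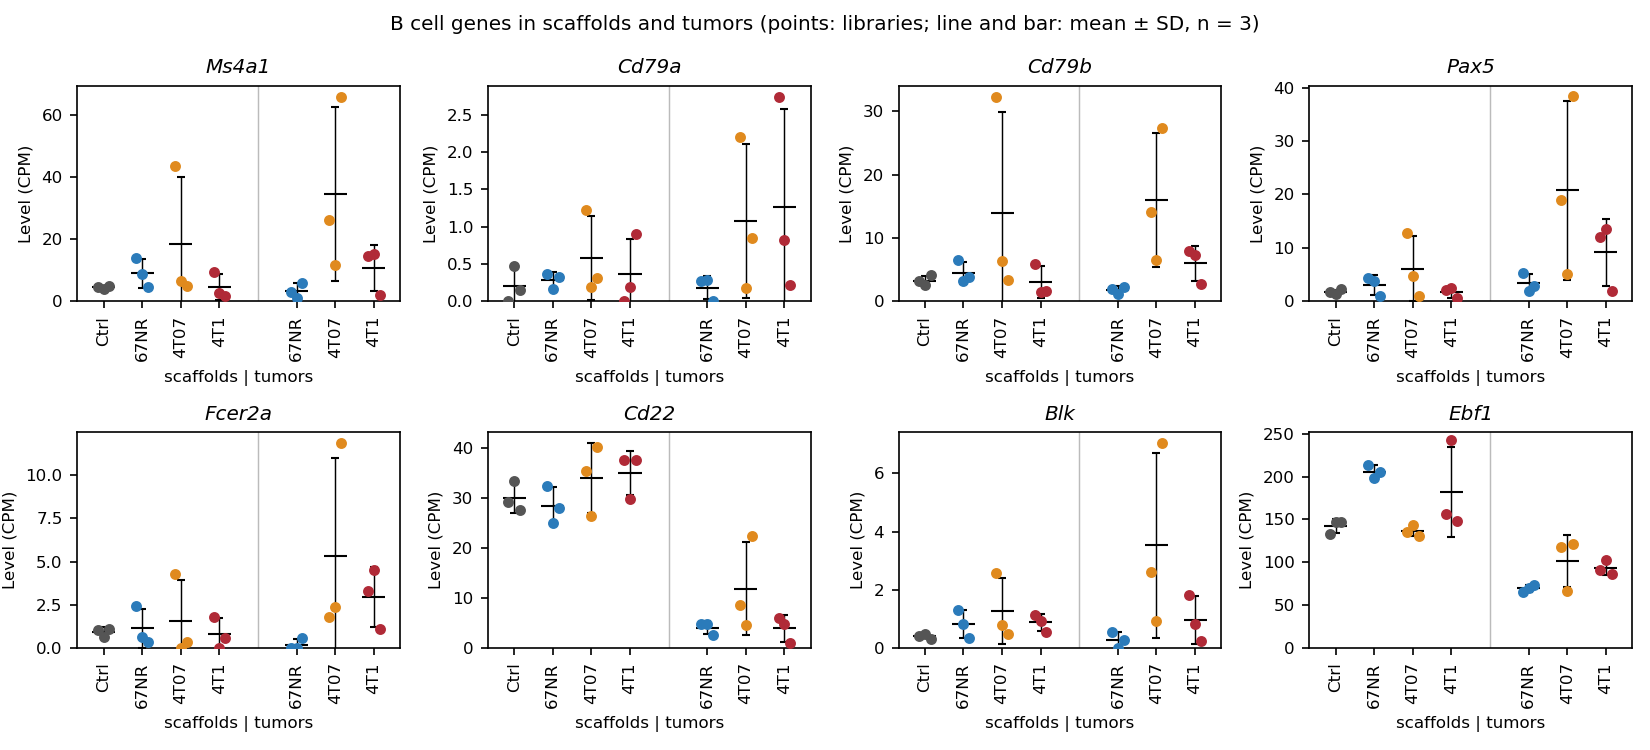
Levels in CPM of the 8 B cell genes in scaffolds (left of the grey line) and primary tumors (right), by group; points are libraries, lines and bars are mean ± SD of 3 libraries. In scaffolds of 4T07 mice 1 library lies far above the others for Ms4a1, Cd79b and Pax5, and in 4T07 tumors the 3 libraries are spread widely.

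Primary tumors of 4T07 held more of 5 of the 8 genes than those of 67NR. Ms4a1 was at 2.96, 1.12 and 5.93 CPM in 67NR tumors, 26.1, 11.6 and 66.0 CPM in 4T07 tumors and 14.6, 15.4 and 2.16 CPM in 4T1 tumors. All 4T07 tumors were above all 67NR tumors, and the 4T1 tumors overlapped both. Cd79b was at 1.88, 1.12 and 2.26 CPM with 67NR, 14.0, 6.53 and 27.4 CPM with 4T07 and 7.86, 7.38 and 2.81 CPM with 4T1, and both invasive lines were above 67NR in every tumor. Blk was at 0.538, 0 and 0.282 CPM with 67NR and 2.61, 0.907 and 7.06 CPM with 4T07, so that 67NR tumors held 2, 0 and 1 counts, all at or under the floor. Fcer2a had 0, 0 and 2 counts in 67NR tumors against 9, 13 and 42 in 4T07 and 18, 22 and 5 in 4T1 tumors, so that each tumor of the invasive lines was above all 67NR tumors. Pax5 was at 5.38, 1.96 and 2.82 CPM with 67NR, 18.9, 5.08 and 38.4 CPM with 4T07 and 12.1, 13.5 and 1.94 CPM with 4T1, and the lowest 4T07 tumor lay among the 67NR tumors.

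Against 67NR tumors, 4T07 tumors were called higher for Ms4a1 (3.11 ± 0.71, adjusted p = 0.00267), Cd79b (2.90 ± 0.56, adjusted p = 0.00072), Pax5 (2.34 ± 0.69, adjusted p = 0.0138), Fcer2a (adjusted p = 0.00565) and Blk (adjusted p = 0.0171), that is 5 of the 8, where 17.1% of all 20508 genes were. The ratio of summed levels was 24.7 for Fcer2a (95% counting interval 6.57 to 208) and 11.1 for Blk (3.54 to 55.8). Ebf1 was at 65.3 to 73.4 CPM in 67NR and 66.8 to 121 CPM in 4T07 tumors and was not called. The count was 3 without the 4T07 library 33 or the 67NR library 20 or 21, since Pax5 and Blk were then lost, and it was 5 without library 31, the tumor with Tlx1. In 4T1 against 67NR tumors only Fcer2a was called higher (adjusted p = 0.0274, ratio 16.3, counting interval 4.25 to 139), where 11.6% of all genes were. That call was lost without library 43, 44, 19 or 20, and without library 45 Fcer2a, Ms4a1 and Cd79b were called. Between 4T1 and 4T07 tumors none of the 8 was called, against 8.61% of all genes, and without library 32 Ms4a1, Cd79b and Cd22 were called lower in 4T1.

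Other genes of the lineage were higher in 4T1 than in 67NR tumors, among them Fcrl1, which rested on 1 count in 67NR tumors, Pou2af1 (log2 fold change 3.31) and Bcl11a (2.70), which plasmacytoid cells use too. Of all 20508 genes tested in this comparison, 11.6% were called higher, and 4244 were called in either direction. Of 18 receptor genes 6 were higher and 1, Siglecg, was lower by 1.70. Of 10 lineage regulators 4 were higher. Of 9 homing genes 2 were, nearer the share of all genes, H2-Ob (2.09) and Tnfsf13b (1.53), the BAFF cytokine. Of 10 T cell genes 3 were higher, with Cd5 at 2.38 and Cd3e at 2.27. Glycam1, listed here with lymph node stroma but not particular to it, was higher too, at 0 to 2.15 CPM in 67NR and 5.83 to 83.8 CPM in 4T1 tumors. Of 5 genes of lymph node stroma, Glycam1 was the only one called. The summed level of these 5 was 0.280 to 2.15 CPM in 67NR tumors and 6.04 to 85.0 CPM in 4T1 tumors, with Madcam1 at 0.216 to 1.10 CPM in 4T1 tumors. In 4T07 tumors the sum was 3.61, 5.44 and 69.1 CPM, in order of size. Whether tumors held lymph node tissue beside the fat pad was not tested. In 4T07 against 67NR tumors, where 17.1% of all genes were called higher, 6 of 18 receptor genes, 8 of 9 homing genes and 8 of 10 T cell genes were higher.

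Beside the scaffold of the same line, tumors had lower Cd22 with each line. Cd22 fell by 2.79 ± 0.47 with 67NR, by 1.77 ± 0.41 with 4T07 and by 3.29 ± 0.45 with 4T1, from 24.9 to 40.2 CPM in scaffolds to 0.863 to 22.3 CPM in tumors, with no overlap between the tissues. Ebf1 fell with 67NR by 1.55 ± 0.20 and with 4T1 by 1.10 ± 0.20, and its 4T07 difference of -0.63 ± 0.20 (adjusted p = 0.0174) was short of the fold threshold. The 4T1 call of Ebf1 was lost without scaffold library 35, at -0.88. So 2 of the 8 were called lower with 67NR, where 17.9% of all 23778 genes were, 1 with 4T07, where 9.50% were, and 2 with 4T1, where 12.1% were. Pax5 was called higher in 4T1 tumors, by 2.30 ± 0.81 (adjusted p = 0.031), where 11.6% of all genes were, and lost that call without library 34, 36, 43 or 44. Without scaffold library 22, 4 more genes were called higher in 4T07 tumors, Ms4a1 (2.34), Cd79b (1.49), Pax5 (2.68) and Fcer2a (4.50).

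The difference of the tumor effect between tissues was tested directly, as the effect against control in one tissue minus that in another, and was called at an adjusted p under 0.1 whatever its size. For 4T1, spleen minus lung was called lower for Cd22 and Ebf1, where 8.41% of all 26665 genes were, and spleen minus scaffold for Ms4a1, Cd22, Blk and Ebf1, where 7.56% were. Lung minus scaffold had none, against 1.05% of all genes in either direction. For 4T07, spleen minus lung was called lower for 7 genes, all but Fcer2a, where 11.2% were, and spleen minus scaffold for 5 (Ms4a1, Cd79b, Pax5, Cd22 and Blk), where 9.21% were. Lung minus scaffold was called higher for Ebf1 at 0.88 ± 0.23 (adjusted p = 0.00534), where 8.62% were. The sizes, and the libraries on which these calls rest, stand with the results set out for a closer look. The 4T07 contrasts with lungs rest on the libraries with Tlx1.

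Across tissues each gene had its highest level in a control or 67NR spleen group, and these groups overlapped for Ms4a1, Cd79b, Pax5, Cd22 and Ebf1. The lowest group was 67NR tumors for 6 of the genes, by mean level. Cd22 was lowest in 4T1 tumors, whose range of 0.863 to 6.03 CPM overlapped that of 67NR tumors, and Pax5 was lowest in 4T1 scaffolds, whose range of 0.539 to 2.42 CPM overlapped those of the other scaffold groups and of 67NR tumors. Among mean levels as a share of control spleens, 4T1 spleens were at 21.4% for Ms4a1, 25.2% for Cd79b, 27.7% for Cd22, 34.6% for Fcer2a, 40.0% for Blk, 41.9% for Ebf1, 54.8% for Pax5 and 64.0% for Cd79a.

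Likeness to the 8 genes was measured as Pearson's r of log2(CPM + 1) with their mean, as a description over libraries that share depth and group. Over 12 spleens, 7 of the 8 had r from 0.913 (Blk) to 0.974 (Ms4a1) with the mean they are part of, and Cd79a had 0.147. The 5 other genes most like the mean were Plekhh2 (0.993), Fbxo32 (0.987), Sh3bp5 (0.987), Plce1 (0.986) and Limch1 (0.986). Over 12 lungs they were Cd59a (0.990), H2-Ob (0.986), Vcam1 (0.984), Ssrp1 (0.981) and Tlcd4 (0.980), and Fcer2a was the member with the lowest r, 0.644. Over 9 tumors, genes among the most alike were Rhoh (0.977), Stap1 (0.976), BE692007 (0.973) and Cd247 (0.972), and Cd79a was again the member least like the others, at 0.674.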

How the data were processed

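RNA from spleens, lungs, scaffolds and primary tumors was sequenced as 3' tag libraries with unique molecular identifiers. The submitters' processing notes name Trim Galore 0.5.0, STAR 2.6.0 and featureCounts; genome build, annotation, strand setting and use of the identifiers are not given in the sources used here. The deposited table holds counts per gene symbol, without normalization; 120 of its 55487 lines repeat a symbol and were summed. Annotated transcripts overlap Ms4a1, Pax5, Fcer2a and Blk, and without a stated strand their reads cannot be told apart.

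Genes with more than 10 counts over the libraries of a fit were tested with edgeR 4.0.16 (TMM scaling, quasi-likelihood test, Benjamini-Hochberg) in R 4.3.3, each tissue in 1 fit with all its groups. The 3 libraries per group are separate mice; exact permutation over 3 against 3 could not go below p = 0.1. DESeq2 1.42.0, other scalings and filters, and leaving out each library were alternatives. On simulated counts, 81.5% to 92.5% of 4-fold changes were recovered within or between tissues, and 64.5% in the 4T1 spleen minus lung contrast. The changed genes were drawn above a minimum mean count, so that recovery of rarer genes, or of smaller changes, was not measured.

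The 8 genes and the other lists were chosen with earlier results of these data known. Named genes were the 8, the called genes of each list with the largest change (at most 2 per direction) with 4T1, and the 5 genes most like the mean of the 8 per tissue. Some genes that this rule names are not reported here.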

Additional observations from a re-analysis of the deposited data

Results flagged for a closer look

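In 19 contrasts of a gene between a pair of tissues, the effect of a tumor line on a B cell gene differed by the test of the difference itself (edgeR's interaction term, adjusted p under 0.1). Values are log2 differences of the effect against control, and no cause was tested.

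With 4T1, spleen minus lung was -0.92 for Cd22 and -0.88 for Ebf1. The Cd22 value lost its call without any 1 of 8 of the 12 libraries. Spleen minus scaffold was -1.91 for Ms4a1, -1.72 for Cd22, -2.06 for Blk and -1.24 for Ebf1. Ms4a1 was at -0.76 (adjusted p = 0.634) without scaffold library 34, and its call was also lost without the 4T1 spleen library 40 or 42, the control scaffold library 2 or 3 or the control spleen library 9. Blk lost its call without scaffold library 34 or 3.

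With 4T07, spleen minus lung was -2.77 for Ms4a1, -3.60 for Cd79a, -2.46 for Cd79b, -2.36 for Pax5, -2.44 for Cd22, -4.15 for Blk and -1.02 for Ebf1. All 7 were called whichever 1 library was left out, and all 3 lungs of 4T07 mice are those with the spleen gene Tlx1 at 11.1 to 14.6 CPM. Spleen minus scaffold was -3.22 for Ms4a1, -2.80 for Cd79b, -2.43 for Pax5, -1.64 for Cd22 and -3.02 for Blk. Without scaffold library 22, which held Tlx1 at 4.65 CPM, Cd79b was at -1.19, Pax5 at -1.17 and Blk at -1.87, and none of these 3 was called. Lung minus scaffold was 0.88 for Ebf1.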

How the results depend on the processing

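Counts below are of the 8 genes called. Changes that were small beside the count are not all listed, such as 6 in place of 5 with DESeq2 in 4T07 against control lungs. With DESeq2's Wald test the count was 1 in 67NR against control spleens (0 in the report), 1 in 4T07 against control scaffolds (2), 1 in 4T1 against 4T07 tumors (0), 2 in 4T1 against 67NR tumors (1) and 2 in the 4T07 lung minus scaffold contrast (1). Requiring at least 10 counts in every library left fewer of the genes to test, and the count was 1 in 67NR against control spleens, 1 in 4T1 against 4T07 spleens, 0 in 4T07 against control scaffolds, 0 in 4T1 against 67NR and in 4T07 against 67NR tumors, 4 in control lungs against spleens, 3 in control scaffolds against spleens, 2 in control scaffolds against lungs, and 1, 0 and 1 in tumors against scaffolds of 67NR, 4T07 and 4T1. In the contrasts between tissues it was then 2 (4T1, spleen minus scaffold), 2, 1 and 2 (4T07, spleen minus lung, spleen minus scaffold and lung minus scaffold). With no filter it was 1 in 67NR against control spleens, 3 in 4T1 against 4T07 and 1 in 4T07 against 67NR scaffolds, 5 in 4T1 against 4T07 and 4 in 4T1 against 67NR tumors, 5, 3 and 5 in tumors against scaffolds, 4 in the 4T1 spleen minus lung and 2 in the 4T07 lung minus scaffold contrast. With only the 2 groups compared it was 1 in 67NR against control and in 4T1 against 4T07 spleens, 0 in 4T07 against control scaffolds and 2 in 4T1 against 67NR tumors. With library totals without TMM, an alternative chosen after seeing the data, it was 1 in 4T1 against 4T07 spleens, 2 in 4T1 against 67NR tumors and 4 in the 4T1 spleen minus lung contrast, and the median of all genes moved to -0.35 with 4T1 and -0.26 with 4T07 against control spleens, where all 8 genes stayed below 0. DESeq2's size factors gave 2 in the 4T07 lung minus scaffold contrast.

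Leaving out each library in turn, the count ran from 0 to 1 in 67NR against control spleens (1 without library 9), 0 to 1 in 4T1 against 4T07 spleens (28, 41), 0 to 3 in 4T07 against control scaffolds, 0 to 2 in 4T1 against 4T07 (34) and 0 to 1 in 4T07 against 67NR scaffolds (24), 0 to 3 in 4T1 against 4T07 tumors (32), 0 to 3 in 4T1 against 67NR and 3 to 6 in 4T07 against 67NR tumors, 1 to 5 in 4T07 tumors against scaffolds (22, 32), 1 to 2 in 4T1 spleen minus lung, 2 to 4 in 4T1 spleen minus scaffold (34, 3), 2 to 6 in 4T07 spleen minus scaffold (22) and 1 to 4 in 4T07 lung minus scaffold (22, 24, 27, 3). It was 4 to 6 with 4T1 and 3 to 4 with 4T07 against control spleens. Without the 4T07 scaffold library 22, Cd79b in 4T07 tumors against scaffolds turned to 1.49, and Ms4a1 and Cd79b in the lung minus scaffold contrast to 1.26 and 1.27, against lowest values of -0.70, -0.92 and -0.82 without another library; the cause was not tested. No paired analysis was possible because the labels do not link the tissues of 1 mouse. Comparisons between tissues therefore treated their libraries as independent, although some may come from the same mice. Depth limited Cd79a, Fcer2a and Blk in scaffolds and 67NR tumors, where most libraries held 3 counts or fewer of Cd79a.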

Other observations

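In lungs of 4T1 mice, other genes of B cells did not all share the lower estimates of the 8 genes. Of 18 receptor signalling genes, 2 were called higher than in control lungs and none lower, where 4.61% of all genes were called in either direction. These 2 were Cd37, a leukocyte tetraspanin, at 1.50, and the kinase Syk at 1.00, both of which other leukocytes express too. The follicle homing receptor Cxcr5 was higher by 1.21 and Jchain was lower by 1.37. None of 10 T cell genes was called. All 10 neutrophil genes were higher, led by Ngp at 8.38 and Ly6g at 7.37, and 6 of 8 erythroid genes were, with Slc4a1 at 2.71 and Klf1 at 2.17. Fabp4 and Adipoq, from the list of fibroblast, pericyte and adipocyte genes, were each lower by 1.86.

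In 4T1 against 67NR tumors, 4 of 7 plasma cell genes were called higher, among them the secretory regulators Xbp1 (1.36) and Prdm1 (1.34), and 5 of 10 fibroblast genes were, led by Col1a1 (3.18) and Lum (1.96). All 4 lung epithelium genes were lower, with Scgb1a1 at -4.58 and Sftpc at -4.48. Of all 20508 genes tested in these tumors, 11.6% were called higher, and 4244 were called in either direction. In 4T07 against control scaffolds, 5 of 8 B cell precursor genes, 9 of 10 neutrophil genes and 7 of 8 erythroid genes were called higher. The share of all genes called higher there was 3.85%. Library 22, the scaffold with Tlx1, held the highest values: Vpreb1 had 188 counts there against 23 and 17 in the other 4T07 scaffolds, and the summed neutrophil level was 8853 CPM against 2272 and 1951 CPM. Without that library, 3 of 7 precursor, 6 of 10 neutrophil and 6 of 8 erythroid genes were called higher.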
